A study of Homo sapiens with 13 samples.

Results

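The alpha-arrestins are a small family of adaptor proteins, and 5 of their genes, ARRDC1, ARRDC2, ARRDC3, ARRDC4 and TXNIP, were followed here in SW480 cells (a human colorectal adenocarcinoma cell line) after 6 h with iron chelators. The genes were taken by name from a table of 18404 genes, and each was measured by 1 transcript cluster, the set of array probes that reads a gene. The family was selected on measured values from these same arrays, namely that ARRDC3 and ARRDC4 moved in opposite directions when the compounds were compared with DMSO. Differences of the 5 genes from DMSO are therefore given as a description, with a standard error (SE) and without a test. Differences between the compounds had not been used for the choice and were tested.

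Alpha-arrestins share the arrestin fold with the beta-arrestins and the visual arrestins. The ARRDC proteins carry PPxY motifs that bind the WW domains of NEDD4-family ubiquitin ligases, and they bring these ligases to receptors and transporters, which are then ubiquitinated and sorted through endosomes. TXNIP binds and restrains thioredoxin and promotes the internalisation of glucose transporters. Transcription of TXNIP and ARRDC4 is driven by the Mondo factors (MLXIP, also called MondoA, and MLXIPL, with their partner MLX), which respond to glucose 6-phosphate.

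The 13 arrays were of the Affymetrix Human Gene 1.0 ST type. Total RNA came from cells kept in 0.1% DMSO, the solvent control (n = 4), in DFO (deferoxamine) at 100 mM (n = 4), in Deferasirox at 50 mM (n = 3) or in OICR623 at 10 mM (n = 2), with doses as the labels state them. DFO and Deferasirox are drugs that bind iron, given to patients with iron overload, whereas OICR623 is a code name with no structure given. Millimolar doses are unusual in culture and another unit may have been meant. All 3 compounds were used at different doses. Replicates are labelled biological and are described as independent experiments. The RNA was from whole cultures, so a change in every cell and a larger change in some of the cells cannot be told apart.

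Array medians fell into 3 levels, a high one (7.17 to 7.19 on the log2 scale) with DMSO 1 and DFO 1, a low one (6.52 to 6.55) with DMSO 4, DFO 4 and Deferasirox 3, and a middle one (6.64 to 6.69) with the other 8 arrays, which include both OICR623 arrays. All values of the 5 genes moved with these levels, as detailed for each gene. Differences are therefore given from a limma fit with the level as a block, and the values within each level stand beside them. Of the epithelial markers, mean log2 signals were 12.67 for the keratin gene KRT8, 13.02 for KRT18 and 9.64 for EPCAM, whereas CDH1 (5.52), CDH17 (4.37) and KRT20 (5.28) gave low signals. Mean signals ranged from 3.27 (LUM) to 7.77 (COL1A1) for the fibroblast markers, from 5.16 (KDR) to 6.46 (ESAM) for the endothelium markers and from 3.38 (PTPRC) to 9.18 (CD68) for the leukocyte markers. Without detection calls in the deposited table, low signals cannot be told from background. None of the 7 fibroblast, 6 endothelium and 6 leukocyte markers measured was called against DMSO for any compound by limma with the level as a block. With Deferasirox 1 fibroblast and 2 endothelium markers had an unadjusted p under 0.05, with OICR623 1 leukocyte marker had, and with DFO none had. Their level-adjusted list means overlapped between all 4 groups, from 5.54 to 5.66 for fibroblast, 5.57 to 5.68 for endothelium and 5.70 to 5.86 for leukocyte markers. Of the 10 epithelial markers KRT19 rose (0.35 with DFO and 0.33 with Deferasirox, limma adjusted p = 0.014 and 0.030) and CDX2, a transcription factor gene of intestinal identity, fell (by 0.49 and 0.77, limma adjusted p = 0.0063 and 6.8e-04), and their part in the values of the alpha-arrestins was not tested.

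The stretch before the start of transcription is shown for the genes that differed most, because TXNIP and ARRDC4 were lower and ARRDC3 was higher with each compound. The sequences are from RefSeq on GRCh38.p14, which lists all 5 genes, and each is the 250 bases before an annotated start, written 5′ to 3′ on the strand of the gene. They lie at chr1:145996580-145996829 (TXNIP, minus strand, the outer of its 2 starts), chr15:97960453-97960702 (ARRDC4, plus strand) and chr5:91380098-91380347 (ARRDC3, minus strand, the inner of its 2 starts). Capitals mark CACGTG, the E-box core read by Mondo factors and other helix-loop-helix proteins, the 2 copies of CACGNG set 5 bases apart that make up a carbohydrate response element, and GTAAACA, the core read by FOXO factors, on either strand.
TXNIP: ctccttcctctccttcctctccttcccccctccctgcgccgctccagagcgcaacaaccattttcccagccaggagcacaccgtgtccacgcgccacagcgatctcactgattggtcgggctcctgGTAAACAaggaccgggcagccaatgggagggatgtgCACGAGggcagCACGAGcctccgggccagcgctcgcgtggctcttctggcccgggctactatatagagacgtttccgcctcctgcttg
ARRDC4: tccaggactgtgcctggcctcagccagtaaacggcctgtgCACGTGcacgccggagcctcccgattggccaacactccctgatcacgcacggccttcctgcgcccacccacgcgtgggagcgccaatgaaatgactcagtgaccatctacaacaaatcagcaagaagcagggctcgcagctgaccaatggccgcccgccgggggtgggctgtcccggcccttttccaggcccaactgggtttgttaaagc
ARRDC3: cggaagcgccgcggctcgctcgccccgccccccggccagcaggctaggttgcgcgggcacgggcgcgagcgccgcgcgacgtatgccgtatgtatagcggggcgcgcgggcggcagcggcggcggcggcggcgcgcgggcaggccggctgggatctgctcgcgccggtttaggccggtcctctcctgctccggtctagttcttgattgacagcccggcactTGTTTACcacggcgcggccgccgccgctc

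The TXNIP window shown, that of its outer start, held the paired element from base -88 to base -72 before the start, with CACGAG as each of its copies. Such a pair was found in 16 of the 35116 windows of this length in the table, or 0.0456%. The ARRDC4 window held a single CACGTG, which 6.34% of windows hold, and no pair at this spacing. GTAAACA was found in the outer TXNIP window and in the inner ARRDC3 window, and in 2.98% of all windows. The outer ARRDC3 window, the window of the inner TXNIP start, the ARRDC1 window and both ARRDC2 windows held none of these 3 motifs. The core ACGTG, which hypoxia-inducible factor reads together with GCGTG, was present in 18.5% of windows. It occurred in the ARRDC4 window only within the CACGTG, where it can be read on both strands, in the window of the inner TXNIP start, and in no window of ARRDC1, ARRDC2 or ARRDC3. GCGTG, found in 32.2% of windows, was present in those of ARRDC4 and ARRDC2 and in that of the outer TXNIP start. The arrays do not show which start was used, and a match of letters is no evidence that a factor bound.

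ARRDC3, an adaptor known for integrin beta 4, was higher with each of the 3 compounds by 4.58 to 5.95 times. Its gene lies on chromosome 5 at 91368631 to 91383317 (GRCh38.p14) and was read by transcript cluster 8113073. The log2 signals in DMSO 1 to 4 were 9.64, 9.10, 9.10 and 9.0. They were 11.74, 11.55, 11.52 and 11.37 in DFO 1 to 4, 11.69, 11.77 and 11.58 in Deferasirox 1 to 3, and 11.36 and 11.33 in OICR623 1 and 2. Every treated array was thus above every DMSO array, the closest being OICR623 2 and DMSO 1, and DMSO did not overlap with any compound. The share of all genes that separated as fully was not counted, and the family was chosen on these contrasts.

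The difference of ARRDC3 from DMSO was 2.34 (SE 0.05, n = 4) with DFO, 2.57 (SE 0.06, n = 3) with Deferasirox and 2.20 (SE 0.07, n = 2) with OICR623. Among all 18404 genes this was the 2nd highest difference with DFO and with Deferasirox and the highest with OICR623. Within the levels it was 2.11, 2.44 and 2.37 with DFO in the high, middle and low level, 2.63 and 2.57 with Deferasirox in the middle and low level, and 2.25 with OICR623 in the middle level. The level itself moved ARRDC3 little by comparison, with 0.37 more in the high and 0.14 less in the low level than in the middle one.

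**Figure D1:**
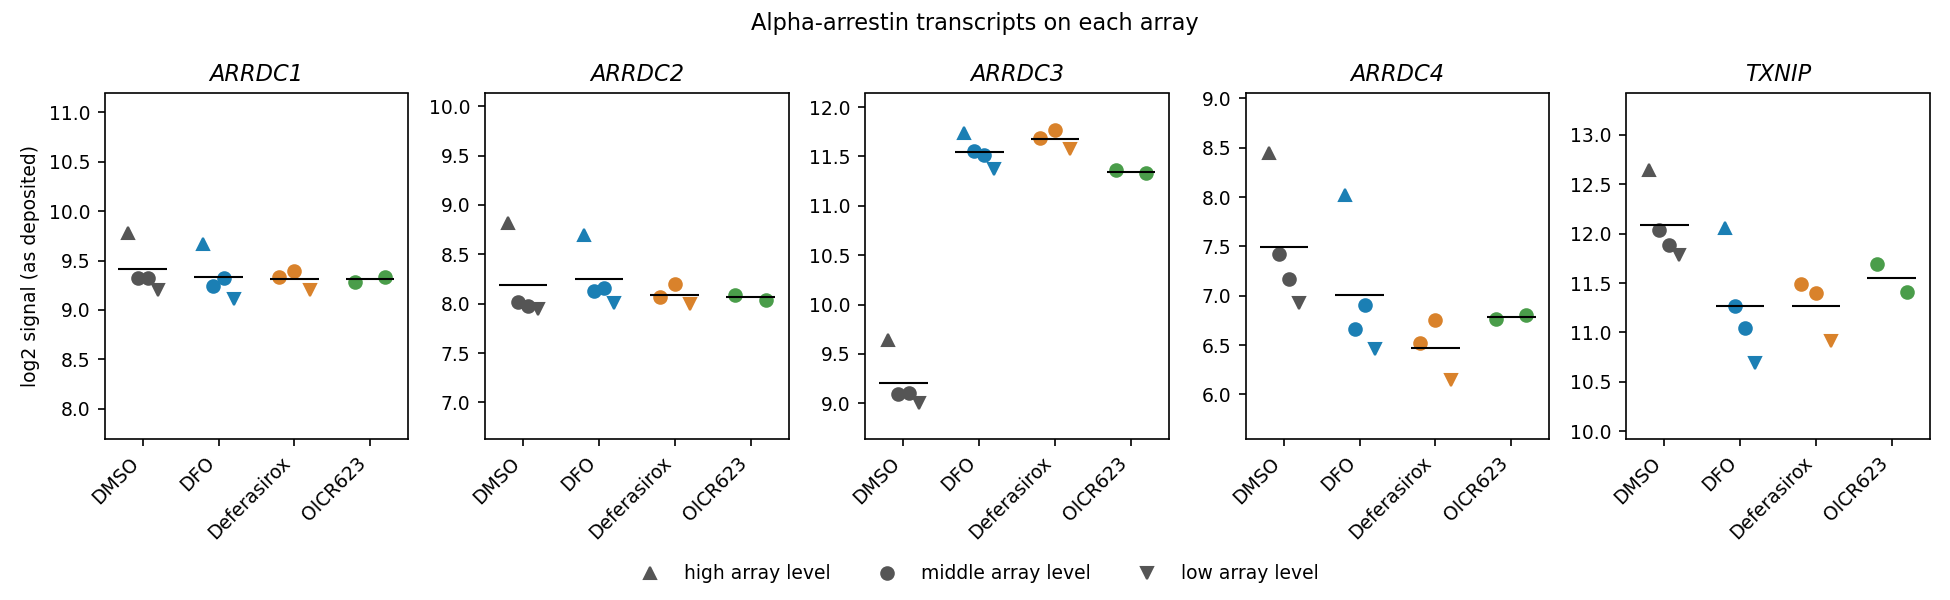
Log2 signal of the 5 alpha-arrestin genes on each of the 13 arrays, by group, with 1 panel per gene; every y axis spans the same number of log2 units, so distances compare between panels, but heights do not. Upward triangles, circles and downward triangles are arrays of the high, middle and low level, and bars are group means. ARRDC3 lies above DMSO on all treated arrays, while the spread of ARRDC4 and TXNIP follows the levels as well as the compounds.

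ARRDC4, the closest to TXNIP in its known response to glucose, was lower than DMSO with each compound. The gene lies on chromosome 15 at 97960703 to 97973833 and was read by transcript cluster 7986350. Its log2 signals were 8.45, 7.42, 7.17 and 6.92 in DMSO 1 to 4 and 8.02, 6.66, 6.91 and 6.46 in DFO 1 to 4. With Deferasirox they were 6.52, 6.75 and 6.15, and with OICR623 they were 6.77 and 6.81. The mean of ARRDC4 stood at percentile 42.7 of all genes, against 96.9 for TXNIP. Apart from DMSO 1 and DFO 1, its signals lay within the range of the fibroblast marker means, and their distance from background is not known. As deposited, the DFO arrays overlapped with DMSO, because DFO 1 in the high level exceeded 3 of the DMSO arrays. All Deferasirox and OICR623 arrays, none of them in the high level, lay below the lowest DMSO array, and so did DFO 2 to 4. The share of all genes that separated as fully was not counted.

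For ARRDC4 the difference from DMSO was -0.48 (SE 0.07) with DFO, -0.69 (SE 0.08) with Deferasirox and -0.51 (SE 0.10) with OICR623. These are 1.39, 1.61 and 1.42 times lower, the 114th, 64th and 56th lowest differences of all genes. Each level gave the same direction, with -0.43, -0.51 and -0.46 for DFO in the high, middle and low level, -0.66 and -0.77 for Deferasirox in the middle and low level, and -0.51 for OICR623 in the middle level. ARRDC4 was 1.18 higher in the high level and 0.39 lower in the low level than in the middle one, and the first was the widest such shift of the 5 genes. Without the block, in which the median of all genes shifts by -0.15 with Deferasirox and by -0.11 with OICR623, the differences were -0.48 (SE 0.35), -1.02 (SE 0.37) and -0.70 (SE 0.42).

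TXNIP, the thioredoxin-binding member, was lower as well, by 1.77 times with DFO, 1.51 times with Deferasirox and 1.36 times with OICR623. Its gene is at 145992435 to 145996579 on chromosome 1, read by transcript cluster 7904726. In DMSO 1 to 4 the log2 signals were 12.65, 12.04, 11.88 and 11.78, and in DFO 1 to 4 they were 12.05, 11.27, 11.05 and 10.69. Deferasirox gave 11.49, 11.40 and 10.91, and OICR623 gave 11.69 and 11.41. DFO 1 of the high level was above 3 DMSO arrays, so DFO and DMSO overlapped. The Deferasirox and OICR623 arrays, none of them in the high level, were all below the DMSO arrays, and so were DFO 2 to 4. The share of all genes that separated as fully was not counted.

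The level-blocked differences of TXNIP were -0.82 (SE 0.09) with DFO, -0.60 (SE 0.10) with Deferasirox and -0.44 (SE 0.12) with OICR623, the 49th, 82nd and 78th lowest of all genes. With DFO they were -0.59, -0.80 and -1.09 in the high, middle and low level. They were -0.52 and -0.87 with Deferasirox in the middle and low level and -0.41 with OICR623 in the middle level. The high and low levels hold 1 array per group, so the spread of these values between levels has no replicate of its own. TXNIP was 0.77 higher in the high level and 0.40 lower in the low level than in the middle one. With 2 OICR623 arrays, each weighs on the result, and the difference with OICR623 was -0.58 without OICR623 1 and -0.30 without OICR623 2.

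**Figure D2:**
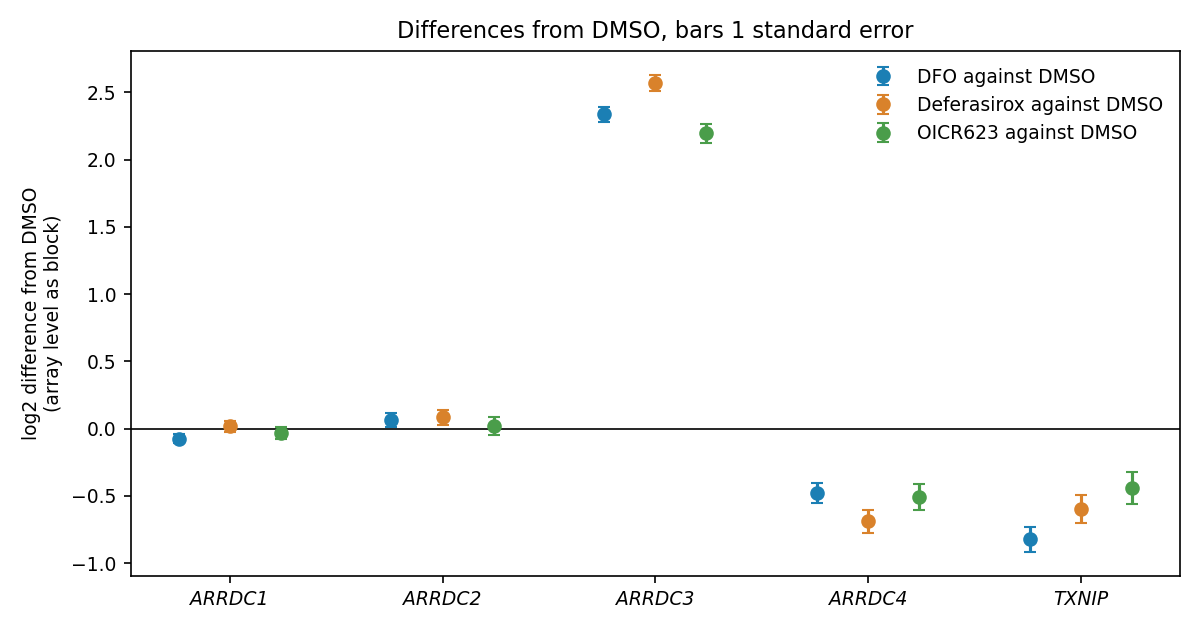
Log2 difference of each compound from DMSO for the 5 genes, from the fit with the array level as a block; points are the estimates and bars are 1 standard error on each side. ARRDC3 stands at 2.20 to 2.57, ARRDC4 and TXNIP at -0.82 to -0.44, and ARRDC1 and ARRDC2 within 0.08 of 0.

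ARRDC1, which recruits TSG101 to bud vesicles from the plasma membrane, differed little from DMSO. The gene is on chromosome 9 at 137605686 to 137615360 (transcript cluster 8159692). Signals ranged from 9.21 to 9.78 in DMSO, from 9.11 to 9.66 in DFO, from 9.21 to 9.39 in Deferasirox and from 9.29 to 9.34 in OICR623, so that all groups overlapped. The differences were -0.08 (SE 0.04) with DFO, 0.02 (SE 0.04) with Deferasirox, where the sign turned without the block (-0.10), and -0.03 (SE 0.05) with OICR623.

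ARRDC2, a less studied adaptor of the family, gave signals from 7.94 to 8.81 in DMSO, 8.01 to 8.70 in DFO, 8.0 to 8.20 in Deferasirox and 8.04 to 8.09 in OICR623. It lies on chromosome 19 at 18001124 to 18014102 (transcript cluster 8026915). Its differences were 0.06 (SE 0.05), 0.08 (SE 0.06) and 0.02 (SE 0.07) with DFO, Deferasirox and OICR623, and the last 2 turned negative without the block (-0.10 and -0.12). With DFO the difference was -0.12 in the high level against 0.15 and 0.07 in the middle and low levels. DMSO 1 gave the highest signal of ARRDC2, a gene 0.68 higher in the high than in the middle level.

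In the same fit over all genes, the level-blocked comparison of DFO with DMSO called 4.60% of the 18404 genes (limma, Benjamini-Hochberg adjusted p under 0.05), 1.89% as higher and 2.72% as lower. Of the 5 genes, ARRDC3 was among the higher, ARRDC4 and TXNIP among the lower, and 2 were not called. For Deferasirox 5.84% of genes were called, 2.83% higher and 3.0% lower, and the same 3 members were among them. For OICR623 the share was 0.734%, with 0.337% higher and 0.397% lower, and ARRDC3 and ARRDC4 were among them, while TXNIP was not. Without the block, ARRDC3 was the 1 member among the called genes in each comparison. As the family was chosen on these contrasts, nothing is read from these counts. The replicate number as a block, which pairs DMSO and DFO arrays, reduced the genes called with DFO from 847 to 78 over all arrays. Over all arrays, however, this block joined arrays of different levels. It set Deferasirox 1 and OICR623 1 (middle level) beside DMSO 1 and DFO 1 (high level). It also set Deferasirox 3 (low level) beside DMSO 3 and DFO 3 (middle level). With the DMSO and DFO arrays alone, 619 genes were called with the replicate number and 599 with the level as a block.

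**Figure D3:**
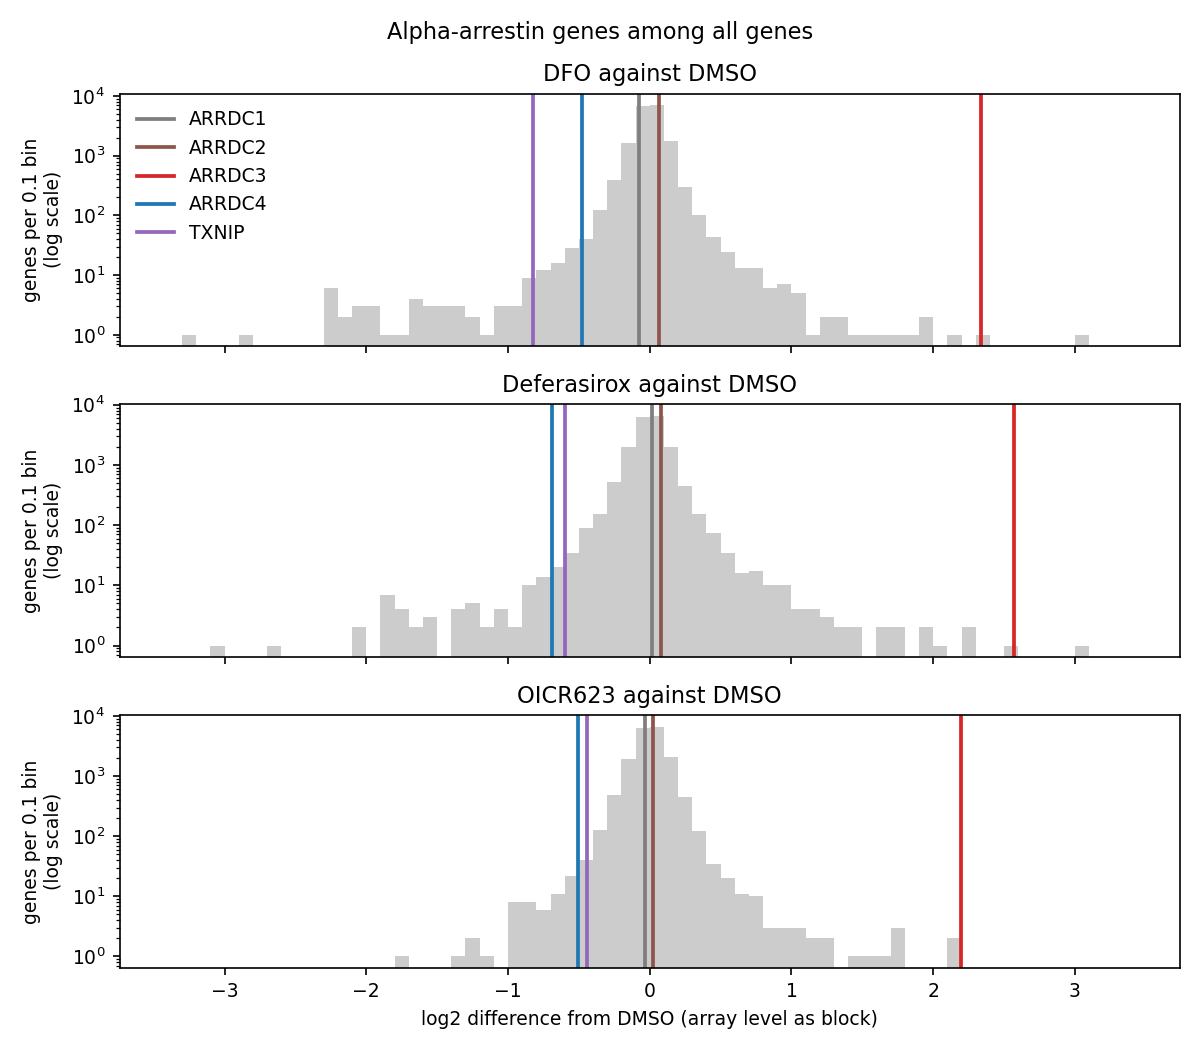
Histograms of the log2 difference from DMSO of all 18404 genes with DFO, Deferasirox and OICR623 (level as a block), in bins of 0.1 with a logarithmic count axis; coloured lines are the 5 genes. ARRDC3 lies at the upper end of each histogram, ARRDC4 and TXNIP lie in the lower tail, and ARRDC1 and ARRDC2 near 0.

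Between the compounds, whose doses differ, 15 differences were tested, 5 genes in 3 pairs, with p adjusted over all genes of each pair. None of the 5 genes was called in any pair by limma with the level as a block, against 0.168% of all genes called for OICR623 against DFO, 0.0435% for Deferasirox against DFO and 0.0869% for OICR623 against Deferasirox. At an unadjusted p under 0.05 (limma) there were 1, 3 and 1 of them, beside 1044, 1847 and 1571 of all 18404 genes. Group order was read from means set to the middle level. ARRDC3 was lowest in DMSO (9.15 ± 0.08, SD, n = 4), followed by OICR623 (11.35 ± 0.02, n = 2), DFO (11.49 ± 0.08, n = 4) and Deferasirox (11.72 ± 0.04, n = 3).

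Between compounds, the lowest adjusted p of the 5 genes was that of ARRDC3, 0.38 lower with OICR623 than with Deferasirox (-0.38, 95% interval -0.53 to -0.22; limma adjusted p = 0.094). Every OICR623 array lay below every Deferasirox array, and the share of all genes that separated as fully was not counted. This difference passed the threshold with the level as a random block (limma adjusted p = 0.038) and with a trended and robust prior (limma adjusted p = 0.0064). It also passed without the dim genes (limma adjusted p = 0.047) and without either DMSO 1 or DFO 1 (limma adjusted p = 0.026). Leaving out either array gives the same fit, because its partner is then alone in the high level. The difference did not pass with middle-level arrays alone (limma adjusted p = 0.15), 2 groups alone (0.42) or all clusters (0.24). Leaving out any other array gave 0.13 to 0.29. The adjusted p lay near 1 with no block, the replicate block, subtracted medians or quantile normalization. Deferasirox exceeded DFO by 0.24 (0.10 to 0.37; limma adjusted p = 0.21, and adjusted p = 0.042 with a trended and robust prior). OICR623 was 0.14 lower than DFO, with an interval of -0.29 to 0.01 that includes 0 (limma adjusted p = 0.90).

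TXNIP stood in another order, with DMSO highest (12.0 ± 0.14, n = 4), then OICR623 (11.55 ± 0.20, n = 2), Deferasirox (11.40 ± 0.09, n = 3) and DFO (11.17 ± 0.12, n = 4). OICR623 exceeded DFO by 0.38 (0.11 to 0.65; limma adjusted p = 0.65), by 0.24 without OICR623 1 and by 0.52 without OICR623 2. Deferasirox exceeded DFO by 0.23 (-0.00 to 0.46; limma adjusted p = 0.50). For ARRDC4 the order was DMSO (7.29 ± 0.10), DFO (6.82 ± 0.11), OICR623 (6.79 ± 0.03) and Deferasirox (6.60 ± 0.13). Deferasirox was 0.21 below DFO (-0.40 to -0.03; limma adjusted p = 0.41), and OICR623 differed from DFO by -0.03 (95% interval -0.24 to 0.19). The compound with the lowest signal was thus DFO for TXNIP and Deferasirox for ARRDC4, with neither difference past the threshold. All intervals for ARRDC1 and ARRDC2 between compounds lay between -0.21 and 0.18.

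Genes whose pattern over the 13 arrays was most like that of each member were found by Pearson correlation after the mean of each level had been taken out. The arrays are shared by all genes and 4 of them are the common DMSO controls, so these values describe likeness only. For ARRDC3 the 5 highest were BHLHE40 (0.998), CEMIP (0.996), ERRFI1 (0.995), CHST15 (0.995) and NDRG1 (0.994). BHLHE40 encodes a transcriptional repressor and ERRFI1 a protein that blocks the EGF receptor kinase, and the 5 genes differed from DMSO by 0.79 to 2.21 over the 3 compounds. The most opposite were BAMBI (-0.992), a pseudoreceptor that dampens TGF-beta signalling, and SNORA10 (-0.987).

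TXNIP was most alike to NUP35 (0.988), ZMYM1 (0.986), KNSTRN (0.982), CENPE (0.978) and VANGL1 (0.977). NUP35 is a nuclear pore gene, and KNSTRN and CENPE act at kinetochores in mitosis. CENPE, with -0.80, -0.68 and -0.39 for DFO, Deferasirox and OICR623, had the differences nearest in size to those of TXNIP among these 5. Most opposite were DUSP1 (-0.981), a phosphatase gene of the MAP kinase response, and IRX5 (-0.981).

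ARRDC4 was followed most closely by GRWD1 (0.964), ZNF17 (0.955), OSR2 (0.954), TMEM167B (0.953) and ZNF616 (0.950), and was mirrored by CSRNP1 (-0.962) and RGCC (-0.948). With each other, ARRDC4 and TXNIP had a likeness of 0.752. With ARRDC3 they had -0.926 and -0.883, the first of which restates the choice of the family. The genes most like ARRDC1 were TOM1L2 (0.935), VAC14 (0.931), DNAJB1 (0.887), SYVN1 (0.886) and MIIP (0.873), and its most opposite were MYL1 (-0.911) and PASK (-0.895). Those most like ARRDC2 were AACS (0.897), IL10RA (0.881), CIAO2B (0.865), LRP12 (0.861) and MEA1 (0.853), with KDR (-0.851) and C2CD4B (-0.841) most opposite. No gene was among the 5 most alike of more than 1 member.

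Genes that act with the alpha-arrestins were counted on lists in the level-blocked comparisons with DMSO. Of all genes, 1.89%, 2.83% and 0.337% were called higher and 2.72%, 3.0% and 0.397% lower with DFO, Deferasirox and OICR623. The lists were chosen with earlier results of these data known, so no excess over these shares is read from the counts. On the list of Mondo factors and of glucose 6-phosphate supply, of 12 measured genes 4 rose and 0 fell with DFO, 5 rose and 0 fell with Deferasirox, and 2 rose and 0 fell with OICR623, with medians of 0.11, 0.16 and 0.13 against 0.00 over all genes. The risers with DFO and with Deferasirox include PFKFB3, which is on this list although it is not a gene of glucose 6-phosphate supply. The glucose transporter gene SLC2A1, whose product TXNIP helps to internalise, rose by 0.58 (SE 0.06, limma adjusted p = 1.2e-04), 0.69 (SE 0.06, limma adjusted p = 9.2e-05) and 0.56 (SE 0.07, limma adjusted p = 0.0053). SLC2A3, another glucose transporter gene, rose by 0.97, 1.07 and 0.91.

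HK2, which phosphorylates glucose to glucose 6-phosphate, rose by 0.50 with DFO and 0.58 with Deferasirox and stood at 0.28 (limma adjusted p = 0.17) with OICR623. PFKFB3, which makes the activator of phosphofructokinase, rose by 1.04 and 1.03 and stood at 0.46 (limma adjusted p = 0.14). HK1, a further hexokinase gene named after its values had been seen, was the fifth called with Deferasirox (0.27). The transcription factor genes themselves were not called, with MLXIP at 0.05, -0.02 and 0.04 and MLX at -0.08, -0.09 and -0.13. Of 8 other Mondo target genes KLF10 alone rose with each compound, by 0.51, 0.47 and 0.31, and ELOVL6, a fatty acid elongase gene, fell by 0.26 with Deferasirox.

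Of the 11 genes of NEDD4-family ligases and their adaptors, 2 rose with DFO and with Deferasirox, beside 4.60% and 5.84% of all genes called, and 0 with OICR623 (limma, 3 with an unadjusted p under 0.05). NEDD4L, a ligase that ARRDC proteins recruit, rose by 0.21 with DFO (SE 0.05, limma adjusted p = 0.039) and by 0.30 with Deferasirox (SE 0.06, limma adjusted p = 0.010), and stood at 0.24 with OICR623 (limma adjusted p = 0.17). SMURF2, a ligase of the same family, rose by 0.18 and 0.35 and stood at 0.19. The other 9 genes of that list were not called. None of the 6 measured arrestin-fold relatives and none of the 12 measured endosomal sorting genes was called by limma for any compound (unadjusted p under 0.05 in 1, 2 and 0 relatives and in 2 sorting genes each with DFO, Deferasirox and OICR623).

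In the thioredoxin system, GLRX, a glutaredoxin gene, rose by 0.41 with Deferasirox (limma adjusted p = 8.0e-04), and no other of the 11 measured genes was called for any compound. TXN, the partner of TXNIP, stood at -0.04, 0.06 and 0.04. Of the genes for proteins reported to be bound or sorted by alpha-arrestins, 3 of 12 rose with DFO and 3 with Deferasirox, SLC2A1, the integrin gene ITGB4 (0.27 and 0.56) and the insulin receptor gene INSR (0.32 and 0.39), and SLC2A1 was the 1 called with OICR623. Of all genes 1.89%, 2.83% and 0.337% rose with DFO, Deferasirox and OICR623. SLC11A2, the iron transporter gene DMT1, was not called, at 0.06, -0.13 and -0.01. ARRB2 and ARRDC5 had no transcript cluster with a single gene symbol and were not analysed here.

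Targets of the glucocorticoid receptor and of FOXO factors, transcription factors that act on alpha-arrestin genes such as TXNIP in other cells, held genes called in both directions. Of all genes 4.60%, 5.84% and 0.734% were called with DFO, Deferasirox and OICR623. Of 9 measured glucocorticoid genes 3 rose with DFO, DUSP1 (0.78), the kinase gene SGK1 (0.62) and the receptor gene NR3C1 (0.44), and 0 fell. With Deferasirox the same 3 rose, by 0.69, 0.86 and 0.44, and TSC22D3, a widely induced glucocorticoid target, fell by 0.30, whereas SGK1 (0.66) was the 1 called with OICR623. Of 13 FOXO genes 2 rose and 2 fell with DFO, IRS2 (0.22) and INSR against SESN3 (-0.45) and PDK4 (-0.27). With Deferasirox IRS2 (0.42) and INSR rose and SESN3 (-0.50) fell, and with OICR623 none of the 13 was called by limma (3 had an unadjusted p under 0.05).

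**Figure D4:**
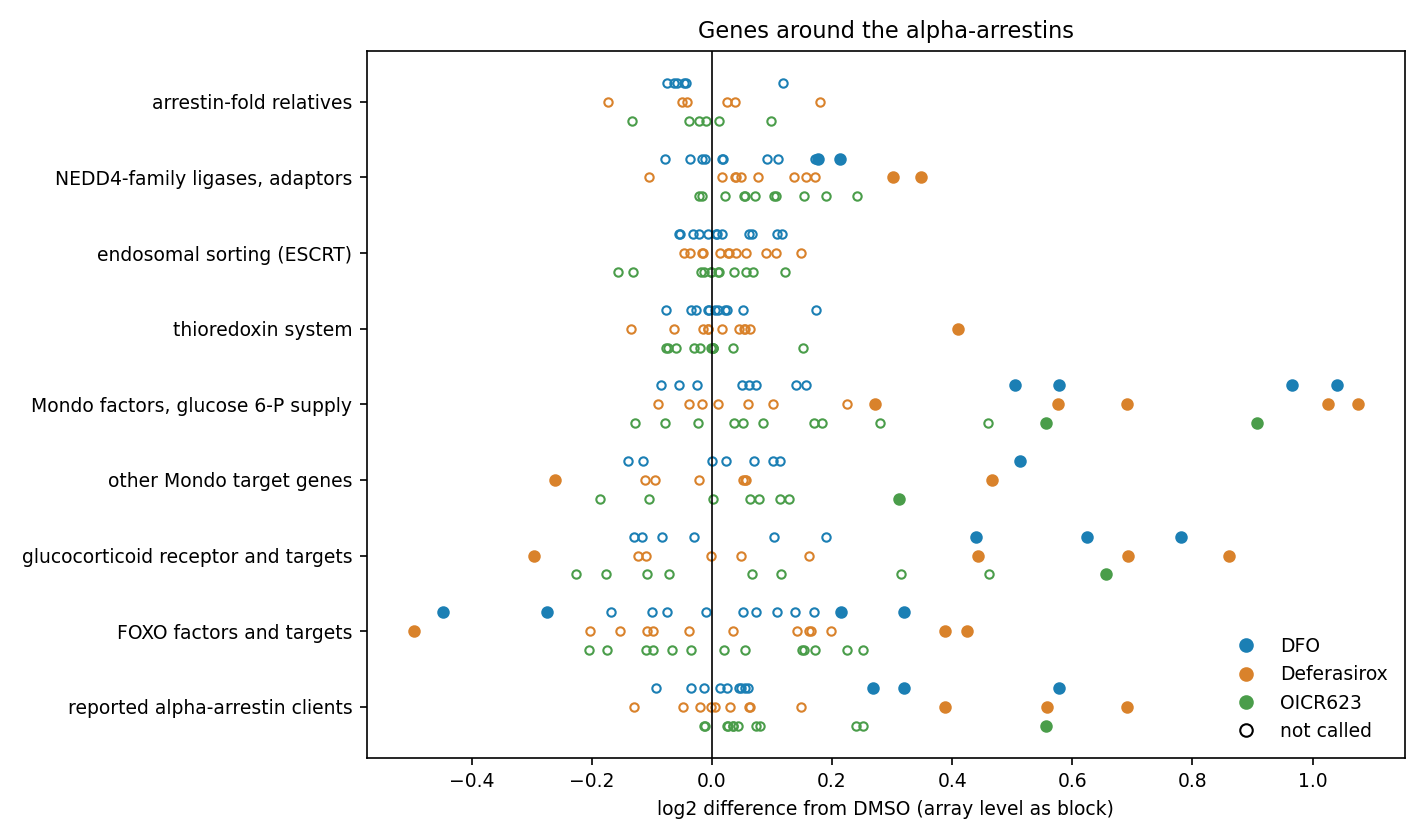
Log2 differences from DMSO of the measured genes on 9 lists around the alpha-arrestins, 1 row per list and compound (level as a block); filled circles are genes called at an adjusted p under 0.05 and open circles are not called. Called genes reach 1.07 in the row of glucose 6-phosphate supply, and the rows of arrestin-fold relatives and endosomal sorting hold none.

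Of the 91 distinct listed genes measured, 15, 18 and 4 were called with DFO, Deferasirox and OICR623, beside 4.60%, 5.84% and 0.734% of all genes. As the lists were chosen with earlier results of these data known, no excess is read from these counts. Without the block 1, 0 and 0 of these called genes were called, PFKFB3 with DFO, and all kept their sign there. With DFO the sign could not turn, because the difference is the same with and without the block. With the replicate number as a block over all arrays 2 of 15, 2 of 18 and 0 of 4 were called, and 17 of 18 and 3 of 4 kept their sign with Deferasirox and OICR623. Over the DMSO and DFO arrays alone that block called 10 of the 15. With the middle-level arrays alone 7, 11 and 3 were called. With DFO 8 were called whichever array was left out, SLC2A1, SLC2A3, HK2, PFKFB3, KLF10, NR3C1, SGK1 and DUSP1, while NEDD4L, SMURF2, IRS2, SESN3, PDK4, INSR and ITGB4 lost the call without DMSO 4 or without DFO 4. With Deferasirox HK1, ELOVL6, NR3C1, TSC22D3, SESN3 and INSR lost it without Deferasirox 3. With OICR623 none of the 4 calls held for every array left out, since SLC2A1 and SLC2A3 were lost without OICR623 1, SLC2A3 and SGK1 without OICR623 2, and KLF10 without any 1 of 11 arrays.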

How the data were processed

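The deposited table holds 13 columns of log2 signals, 1 per array and transcript cluster, made by the authors. The submitters' processing notes name GCRMA, a background correction and normalization for Affymetrix probes, and limma, and versions or order are not given in the sources used here. Of 32321 clusters 19158 carried 1 symbol in GEO's platform annotation, 1388 several and 11775 none. The cluster with the highest mean stood for each of 18404 genes. Genes were kept whatever their signal.

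The family and the gene lists were chosen with earlier results of these data known. Group means over all 13 arrays were fitted with limma 3.58.1 in R 4.3.3, with the level of the array median (split at gaps over 0.05) as a block, empirical Bayes moderation and Benjamini-Hochberg adjustment over all genes (adjusted p under 0.05). The limma fit was run on simulated data for DFO against DMSO, and no other comparison or step was tested this way. The number of arrays limits the precision. The p-values rest on the spread left between replicates after group and level were fitted, pooled over the groups and moderated over all genes.

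Genes named were the 5 members, for each the 5 most alike and 2 most opposite, up to 4 called genes per list and comparison by adjusted p, and MLXIP, MLX, TXN, NEDD4L, SLC2A1 and SLC11A2. The alternatives were no block, the replicate number as a block, subtracted medians, quantile normalization, a random block, middle-level arrays alone, 2 groups alone, a trended robust prior, no dim genes, all clusters, and each array left out. Replicate numbers came from the titles. Same-numbered DMSO and DFO arrays deviated together (r = 0.945, 0.662, 0.738 and 0.788) and also shared a level, while the numbers did not pair DMSO with Deferasirox (-0.06, 0.33 and -0.32) or OICR623 (0.29 and -0.01). Protein sequences were not used here.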

Additional observations from a re-analysis of the deposited data

Results flagged for a closer look

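Each of the 5 genes was tested by Dixon's criterion in DMSO and in DFO, once on the signals as deposited and once with the level taken out, 20 tests in all on 10 sets of 4 arrays. In 2 of them 1 array stood apart, both on DMSO signals as deposited. Chance flags about 1 in 20 tests, and the tests on 1 set are not independent. For ARRDC2, DMSO 1 (8.81) was above the other 3 DMSO arrays by a gap of 0.920 of the whole range, past the 95% critical value for 4 arrays. For ARRDC3, DMSO 1 (9.64) was the highest by 0.849 of the range. DMSO 1 lies in the high level of array medians together with DFO 1. Once the level was taken out, the same ratios were 0.523 for ARRDC2 and 0.740 for ARRDC3, under the critical value. DMSO 1 itself sets part of what is taken out in the high level, so a lower ratio is partly built in. The cause of the 2 flags was not tested.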

How the results depend on the processing

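The differences of ARRDC3, ARRDC4 and TXNIP from DMSO with each compound kept their sign under every alternative run. Over all differences of the 5 genes from DMSO, 129 alternative values stayed within 1 residual SD of the level-blocked fit and 26 moved further. Many of the 129 could not move. The trended robust prior, no dim genes and all clusters change the SE alone. For DFO, whose arrays match DMSO in each level and replicate number, no block, the replicate block, the random block and 2 groups alone return the same difference. The 195 values with 1 array left out all stayed within 1 residual SD. Leaving out an array of another compound could not move the DFO differences. Left-out arrays gave 2.31 to 2.41, 2.55 to 2.61 and 2.17 to 2.23 for ARRDC3, -0.53 to -0.42, -0.77 to -0.63 and -0.57 to -0.44 for ARRDC4, and -0.90 to -0.73, -0.65 to -0.49 and -0.58 to -0.30 for TXNIP with DFO, Deferasirox and OICR623. The files hold no measure of background, which limits what low signals show.

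Without a block, Deferasirox against DMSO was -0.10 for ARRDC1, -0.10 for ARRDC2, 2.47 for ARRDC3, -1.02 for ARRDC4 and -0.82 for TXNIP, and OICR623 was -0.10 for ARRDC1, -0.12 for ARRDC2 and -0.70 for ARRDC4. With the replicate block in place of the level, Deferasirox gave -0.17, -0.18, 2.40, -1.20 and -0.97 and OICR623 gave -0.23, -0.29, 2.01, -1.08 and -0.86 for ARRDC1, ARRDC2, ARRDC3, ARRDC4 and TXNIP. For these 2 compounds that block joins arrays of different levels, and the numbers did not pair their arrays with DMSO. For DFO the replicate block returned the same 5 differences as the level block. DMSO and DFO have equal numbers of arrays in each level and replicate number, so this is no check of them. With array medians subtracted, ARRDC1 was 0.061 and ARRDC4 was -0.86 with Deferasirox and ARRDC1 was 0.0010 with OICR623. After quantile normalization they were 0.094, -0.84 and 0.047. With the middle-level arrays alone DFO gave 0.15 for ARRDC2 and 2.44 for ARRDC3.

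The number of genes called with DFO, Deferasirox and OICR623 against DMSO was 847, 1074 and 135. It was 45, 43 and 7 without a block, 78, 127 and 10 with the replicate block, 154, 170 and 19 with medians subtracted, 169, 186 and 25 after quantile normalization, and 274, 326 and 81 with the middle-level arrays alone, where fewer arrays enter. With DMSO and DFO arrays alone, the replicate block gave 619. With 2 groups alone Deferasirox gave 656 and OICR623 gave 32, and OICR623 gave 336 with a trended robust prior, 203 without dim genes and 74 over all clusters. Leaving out 1 array gave 494 to 846 for DFO (lowest without DFO 4), 546 to 1066 for Deferasirox (lowest without Deferasirox 3) and 33 to 173 for OICR623 (lowest without OICR623 1).

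Between compounds 31 (OICR623 against DFO), 8 (Deferasirox against DFO) and 16 (OICR623 against Deferasirox) genes were called. Each pair gave 0 without a block and 0 with the replicate block (limma; 1044, 1847 and 1571 genes had an unadjusted p under 0.05 with the level as a block). With medians subtracted the counts were 9, 0 and 0, after quantile normalization 12, 0 and 0, with a random block 47, 20 and 56, and with a trended robust prior 51, 116 and 109. The middle level alone gave 0 for Deferasirox against DFO and 7 for OICR623 against Deferasirox, 2 groups alone gave 0 for both, and leaving out dim genes gave 35 and 59. Leaving out 1 array gave 8 to 32, 0 to 10 and 0 to 26.

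Signs of small differences between compounds turned. For OICR623 against DFO they turned for ARRDC1 (-0.023 without a block, -0.15 with the replicate block), for ARRDC4 (0.00031 with the middle level alone and with 2 groups alone, and -0.11 to 0.019 with 1 array left out) and for TXNIP (-0.038 with the replicate block). For Deferasirox against DFO they turned for ARRDC1 (-0.024 without a block, -0.095 with the replicate block), for ARRDC2 (-0.16 without a block, -0.24 with the replicate block, -0.017 with medians subtracted, -0.0097 with the middle level alone, -0.010 with 2 groups alone, and -0.021 to 0.050 with 1 array left out) and for TXNIP (-0.15 with the replicate block). For OICR623 against Deferasirox ARRDC1 turned to 0.00033 without a block. ARRDC3 became a called difference for Deferasirox against DFO with a trended robust prior (0.24) and for OICR623 against Deferasirox with a random block, a trended robust prior and no dim genes (-0.38 in each), and it ranged from -0.40 to -0.34 with 1 array left out. The difference between OICR623 and Deferasirox was also called without DMSO 1 or without DFO 1, which give the same fit. Under the other alternatives neither difference was called. The cause of these changes was not tested.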
